A study of Mus musculus with 11 samples.

Results

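The enzymes that turn cholesterol into conjugated bile acids were followed here through 10 genes: *Cyp7a1*, *Cyp8b1*, *Cyp7b1*, *Cyp27a1*, *Hsd3b7*, *Akr1d1*, *Amacr*, *Slc27a5*, *Baat* and *Cyp2c70*. They were chosen by name for their step in the pathway, with earlier results of these data known. They are 10 of the 46603 genes in the count table. All 10 of 10 passed the filter on low counts and were among the 13880 genes tested, and the lowest count of any of them in a mouse was 10.

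Hepatocytes make bile acids by a classic and an alternative route. In the classic route *Cyp7a1* hydroxylates the sterol ring of cholesterol and sets the pace, and *Cyp8b1* adds the hydroxyl group that makes cholic acid. In the alternative route *Cyp27a1* oxidises the side chain and *Cyp7b1* hydroxylates the ring. *Hsd3b7* and *Akr1d1* rework the ring. *Amacr* acts on the side chain before it is shortened in peroxisomes, *Slc27a5* and *Baat* join bile acids to coenzyme A and then to taurine or glycine, and *Cyp2c70* makes the muricholic acids of rodents. Bile acids activate the nuclear receptor FXR (*Nr1h4*), which is known to repress *Cyp7a1* and *Cyp8b1* through SHP (*Nr0b2*) in the liver and through FGF15 released by the ileum.

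The comparison asked how these genes differed between AMLN *ob/ob*-MASH mice given INT-767, a synthetic relative of the bile acids and an agonist of FXR and of the membrane receptor TGR5 (*Gpbar1*), and those given vehicle. All 11 mice were male Lep ob/ob animals of the B6.V-Lep ob/JRj strain, which lack leptin in every tissue, and were 5 to 6 weeks old when they were put on the AMLN diet, which is high in cholesterol, fat and fructose. They ate it for 15 weeks before dosing and throughout dosing, and all had a liver biopsy before it. INT-767 at 10 mg/kg (4 mice) or carboxymethyl cellulose vehicle (7 mice) was given by gavage once daily for 8 weeks. No lean, chow-fed or undosed mice entered the comparison, and the hour of day at which livers were taken is not given in the sources used here. Total counts were between 7966963 and 15295230 in vehicle mice (median 10878327, n = 7) and between 7381211 and 16022459 in INT-767-treated mice (median 12034846.5, n = 4). Levels are given as CPM, which are counts relative to the TMM-scaled total of the library, and fold changes are log2 of INT-767 over vehicle with the standard error (SE) from edgeR. An adjusted *p* is the Benjamini-Hochberg *p* of edgeR's quasi-likelihood test over all 13880 genes, and a gene is said to have risen or fallen where it was under 0.05.

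Hepatocyte genes were abundant in every mouse. The summed level of 10 other hepatocyte genes was between 67273 and 89011 CPM with vehicle (median 71302) and was 117445, 125659, 103099 and 86599 CPM in INT-767-treated mice 1 to 4. *Alb*, the serum albumin gene, was the most abundant of them. Of the 10, *Serpina1e* fell (−2.79, SE 0.44, adjusted *p* = 0.00449) and the other 9 did not pass the test with edgeR. DESeq2 called 6, 5 of them higher, and edgeR called 4, 3 of them higher, without vehicle mouse 1, without INT-767 mouse 4 or with a GC content and length offset. Treated mouse 4 lay within the vehicle range of this sum and the other treated mice above it, and the part of this in the results was not tested. *Serpina1e* belongs to a family of near-identical copies, so that its count is uncertain.

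INT-767-treated livers held less *Cyp8b1* and *Cyp7a1* mRNA and more *Akr1d1* and *Slc27a5* mRNA. The falls were 24.2-fold for *Cyp8b1* and 3.07-fold for *Cyp7a1*, and the rises 4.3-fold for *Akr1d1* and 1.89-fold for *Slc27a5*. The other 6 genes, among them *Cyp27a1* and *Cyp7b1*, did not pass the test. The 4 called genes are 40% of the 10, where 9.72% of all tested genes were called, 5.04% as higher and 4.68% as lower. The median log2 fold change of the 10 was 0.35, and that of all tested genes −0.011. That of the 10 other hepatocyte genes was higher, at 0.55, with 8 of them above 0, 2 below 0 and 7 at an unadjusted *p* under 0.05 in edgeR. In whole-liver RNA, fewer cells of a type and less RNA per cell cannot be told apart. The summed level of the 10 other hepatocyte genes was within the vehicle range in treated mouse 4 and above it in the other treated mice. The part of this in the falls and rises was not tested.

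**Figure D1:**
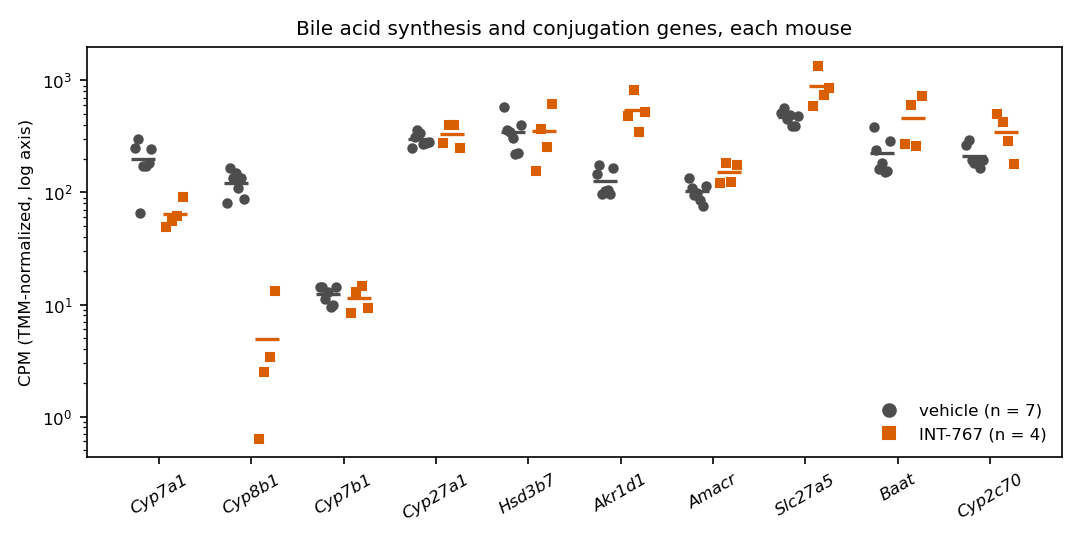
CPM of the 10 genes in each mouse on a log axis, vehicle as grey circles (n = 7) and INT-767 as orange squares (n = 4), with lines at the group means. The *Cyp8b1* squares lie between 0.635 and 13.3 CPM, below all circles, while the *Akr1d1* and *Slc27a5* squares lie above all of theirs.

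*Cyp8b1* and *Akr1d1* had the largest fall and rise of the 10, and RefSeq gives the promoter of each, so the 250 bases before their transcription start (GRCm38.p6, read 5′ to 3′ on the gene's strand) are printed here. A 40-base stretch of the *Cyp2c70* promoter, 80 to 41 bases before the start, is shown beside them because it holds the same HNF4 motif as *Cyp8b1*. The *Cyp8b1* window is chr9:121916306-121916555 on the minus strand, the *Akr1d1* window chr6:37529923-37530172 on the plus strand and the *Cyp2c70* stretch chr19:40187327-40187366 on the minus strand. Capitals mark matches to 4 motifs searched on both strands: the HNF4 motif CAAAGTCCA, the NR5A2 motif CAAGGNCA, the nuclear receptor motif AGGTCA and the FXR inverted repeat, which is AGGTCA and its reverse complement TGACCT 1 base apart and so contains the nuclear receptor motif.
Cyp8b1: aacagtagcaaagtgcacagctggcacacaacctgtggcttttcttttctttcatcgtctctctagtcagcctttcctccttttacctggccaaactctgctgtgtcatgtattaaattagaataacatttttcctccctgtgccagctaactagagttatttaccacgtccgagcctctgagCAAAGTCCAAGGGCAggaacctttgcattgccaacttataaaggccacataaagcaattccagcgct
Akr1d1: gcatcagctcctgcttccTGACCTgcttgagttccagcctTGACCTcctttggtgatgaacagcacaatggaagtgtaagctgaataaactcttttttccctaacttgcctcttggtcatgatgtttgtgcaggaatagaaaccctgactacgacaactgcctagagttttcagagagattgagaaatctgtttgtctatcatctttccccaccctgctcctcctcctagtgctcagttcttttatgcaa
Cyp2c70: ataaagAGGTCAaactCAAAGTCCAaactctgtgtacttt
In *Cyp8b1* the HNF4 match lay 67 to 59 bases before the start and the NR5A2 match CAAGGGCA 60 to 53 bases before it, so that they overlap and form 1 run of capitals. In *Cyp2c70* the HNF4 match lay 64 to 56 bases before the start, with AGGTCA at 74 to 69. RefSeq places the *Cyp2c70* start inside the gene as GENCODE draws it, and distances are from the RefSeq start. *Akr1d1* held TGACCT at 232 to 227 and at 210 to 205 and none of the other motifs. Of 32851 RefSeq promoter windows of this length, 0.384% held the HNF4 motif, 5.53% the NR5A2 motif, 14% the nuclear receptor motif and 0.00609% the FXR inverted repeat. RefSeq windows were at hand for 5 of the 10 genes (*Cyp8b1*, *Akr1d1*, *Cyp2c70*, *Cyp27a1* and *Hsd3b7*), and those of *Cyp27a1* and *Hsd3b7* held none of the 4 motifs. A match is a description of the letters and not a measured binding site.

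*Cyp7a1* (ENSMUSG00000028240, chr4:6265612-6275633, GRCm38, minus strand, 6 exons) opens the classic route. In vehicle mice it was between 66.2 and 299 CPM (median 182), and in INT-767-treated mice it was 49, 56, 61.7 and 92 CPM. The groups overlapped because vehicle mouse 3, at 66.2 CPM, lay within the range of the treated mice, while the other vehicle mice were at or above 172 CPM. *Cyp7a1* fell by 1.62 on the log2 scale (SE 0.34, adjusted *p* = 0.0159, exact two-sided Mann-Whitney *p* = 0.0121). Without INT-767 mouse 2 the fall was 1.57 with an adjusted *p* of 0.0705, above the threshold.

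*Cyp8b1* (ENSMUSG00000050445, chr9:121914356-121916305, minus strand) has a single exon in the annotation. It was between 80.4 and 164 CPM in vehicle mice (median 134) and 0.635, 2.49, 3.38 and 13.3 CPM in INT-767-treated mice. These last values rest on 10, 18, 24 and 178 counts, against at least 634 in any vehicle mouse. No treated mouse reached the lowest vehicle mouse, and treated mouse 4 stood well above the other treated mice. *Cyp8b1* fell by 4.60 (SE 0.65, 95% interval −6.01 to −3.19, adjusted *p* = 0.00329). Its size depended on treated mouse 4: without it *Cyp8b1* fell by 5.94 (SE 0.50, adjusted *p* = 0.000282), and with limma-voom on all mice by 5.38 (SE 0.59, adjusted *p* = 0.00102). The exact Mann-Whitney *p* was 0.00606, the smallest that 4 against 7 mice can give.

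Within each mouse *Cyp8b1* was also compared with *Cyp7a1*, since a ratio of counts from the same library does not depend on scaling. The log2 ratio was between −1.64 and 1.03 with vehicle (median −0.66) and was −6.20, −4.45, −4.16 and −2.78 in the treated mice, and the groups did not overlap. The medians differed by −3.65, so that *Cyp8b1* was lower relative to *Cyp7a1* in each treated mouse than in any vehicle mouse. The ratios of *Cyp7b1* and *Cyp27a1* to *Cyp7a1* had medians that were higher with INT-767 by 1.80 and 1.99, and both overlapped between groups. Vehicle mouse 3, with its low *Cyp7a1*, was at −2.54 and 2.46 in these, inside the treated range. No test was run on the ratios.

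**Figure D2:**
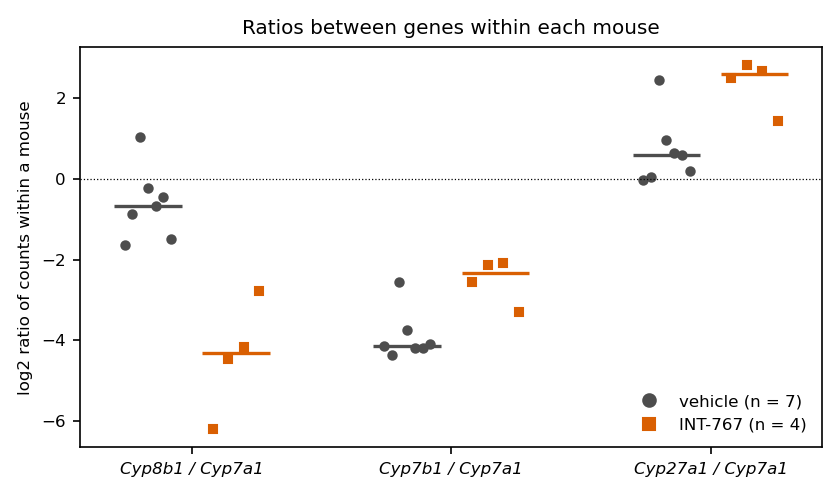
The log2 ratio of counts of *Cyp8b1*, *Cyp7b1* and *Cyp27a1* to *Cyp7a1* within each mouse, vehicle as grey circles (n = 7) and INT-767 as orange squares (n = 4), with lines at the medians and a dotted line at 0. For *Cyp8b1* all treated mice lie below all vehicle mice, while for the other ratios the groups overlap.

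Of the enzymes that rework the sterol ring, *Akr1d1* rose and *Hsd3b7* did not pass the test, and the difference between them was not tested. *Akr1d1* (ENSMUSG00000038641, chr6:37530173-37568815, plus strand, 9 exons), the reductase that gives bile acids their bent ring, was between 96.5 and 174 CPM with vehicle (median 106) and 479, 820, 346 and 526 CPM with INT-767. Even the lowest treated mouse was far above the highest vehicle mouse. *Akr1d1* rose by 2.10 (SE 0.25, 95% interval 1.57 to 2.64, adjusted *p* = 0.00126, exact Mann-Whitney *p* = 0.00606). *Hsd3b7* (ENSMUSG00000042289, chr7:127800604-127803802, plus strand, 5 exons) was between 220 and 580 CPM with vehicle (median 343) and 155, 370, 253 and 622 CPM with INT-767. Its treated mice spanned the whole vehicle range and beyond it on both sides. The log2 fold change was 0.0033 (95% interval −0.75 to 0.76, adjusted *p* = 0.995), an interval from 0.593-fold to 1.69-fold. In the GENCODE M21 annotation 62.4% of the exon bases of *Hsd3b7* are also covered on the opposite strand by *9430064I24Rik* and 62% on the same strand by *Gm49388*. Neither has a row in the table, and whether the counting used strand is not given, so that reads of these genes may be part of the *Hsd3b7* count. The exons of the other 9 genes overlap no other gene's exons and share no 75-base stretch with another gene.

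Of the alternative route, *Cyp27a1* and *Cyp7b1* did not pass the test. *Cyp27a1* (ENSMUSG00000026170, chr1:74713574-74737892, plus strand, 9 exons) was between 249 and 364 CPM with vehicle (median 283) and 278, 396, 396 and 248 CPM with INT-767. Its log2 fold change was 0.14 (95% interval −0.23 to 0.51, adjusted *p* = 0.568, exact Mann-Whitney *p* = 0.648), and it was −0.068 when counts were scaled by library size only. *Cyp7b1* (ENSMUSG00000039519, chr3:18071950-18243338, minus strand, 6 exons) was between 9.45 and 14.4 CPM with vehicle (median 13) and 8.39, 12.9, 14.6 and 9.37 CPM with INT-767. The groups of both genes lay over each other. The log2 fold change of *Cyp7b1* was −0.14 (95% interval −0.56 to 0.28, adjusted *p* = 0.62), so that the interval reaches from 0.676-fold to 1.22-fold.

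Of the conjugating enzymes, *Slc27a5* rose and *Baat* did not pass the test. *Slc27a5* (ENSMUSG00000030382, chr7:12988346-12998192, minus strand, 10 exons), the bile acid coenzyme A ligase, was between 388 and 565 CPM with vehicle (median 480) and 587, 1354, 742 and 854 CPM with INT-767. Treated mouse 1 was only just above the highest vehicle mouse, and treated mouse 2 was by far the highest of all. *Slc27a5* rose by 0.92 (SE 0.21, adjusted *p* = 0.0201, exact Mann-Whitney *p* = 0.00606). Without treated mouse 2 the log2 fold change was 0.62 and the adjusted *p* 0.0881. *Baat* (ENSMUSG00000039653, chr4:49489422-49506557, minus strand, 4 exons), which transfers the amino acid, was between 152 and 381 CPM with vehicle (median 183) and 268, 604, 260 and 728 CPM with INT-767. Treated mice 2 and 4 exceeded every vehicle mouse, and treated mice 1 and 3 did not. Its log2 fold change was 1.06 (95% interval 0.33 to 1.79, adjusted *p* = 0.0627, exact Mann-Whitney *p* = 0.0727).

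*Amacr* (ENSMUSG00000022244, chr15:10981756-10996626, plus strand, 5 exons), the racemase of the side chain, was between 75.8 and 134 CPM with vehicle (median 99.5) and 122, 184, 123 and 175 CPM with INT-767. Only vehicle mouse 1 reached into the treated range. The log2 fold change was 0.57 (95% interval 0.18 to 0.96, adjusted *p* = 0.0634, exact Mann-Whitney *p* = 0.0242). *Cyp2c70* (ENSMUSG00000060613, chr19:40153353-40187333, minus strand, 9 exons), the muricholate enzyme, was between 164 and 291 CPM with vehicle (median 195) and 499, 428, 290 and 179 CPM with INT-767. Treated mice 1 and 2 exceeded all vehicle mice, and treated mouse 4 lay among the lower ones. The log2 fold change was 0.72 (95% interval 0.17 to 1.27, adjusted *p* = 0.0824, exact Mann-Whitney *p* = 0.23). With DESeq2 in place of edgeR, *Amacr*, *Baat* and *Cyp2c70* passed the threshold (adjusted *p* = 0.024, 0.0216 and 0.0421), with log2 fold changes of 0.57, 1.07 and 0.73. Exact Mann-Whitney tests were run on all 10 genes, and their *p* are not adjusted.

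**Figure D3:**
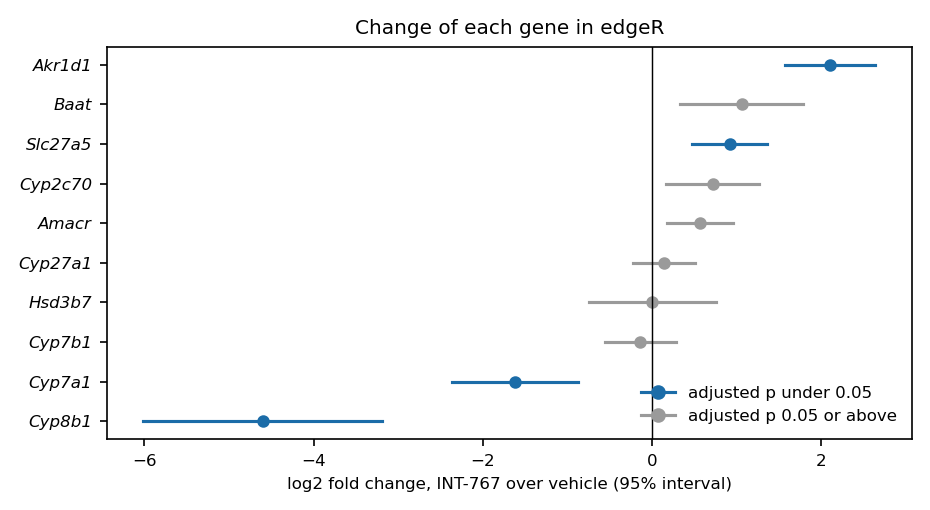
Log2 fold change of each gene, INT-767 (n = 4) over vehicle (n = 7), with its 95% interval derived from the edgeR test. Blue marks an adjusted *p* under 0.05 and grey the other genes. *Akr1d1* at 2.10 and *Cyp8b1* at −4.60 mark the ends, and the intervals of *Cyp27a1*, *Hsd3b7* and *Cyp7b1* cross 0.

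The groups did not overlap for 3 of the 10 genes (*Cyp8b1*, *Akr1d1* and *Slc27a5*), where 7.51% of all tested genes had groups that did not overlap. Of all tested genes, 700 rose and 649 fell. With library size only the split was 331 and 1026, the median of all genes moving to −0.22, and with upper-quartile factors it was 467 and 812. The 10 genes were called in the same numbers, 2 higher and 2 lower, under both.

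Per kilobase of exon, the genes stood in a different order in each group. In vehicle mice *Slc27a5* was the highest (mean 192 CPM per kilobase ± 25.9, SD, n = 7), by more than its SD above *Cyp27a1* (138 ± 18.8). From *Cyp27a1* through *Hsd3b7* (126 ± 44.3) and *Baat* (115 ± 44.5) to *Cyp2c70* (107 ± 23.6) neighbours lay within their spread of each other. *Cyp2c70* was by more than its SD above *Cyp8b1* (62.9 ± 16). *Cyp8b1*, *Cyp7a1* (47.5 ± 18), *Akr1d1* (43.7 ± 11.7) and *Amacr* (39.1 ± 7.36) again lay within their spread, and *Cyp7b1* was the lowest (5.72 ± 0.98), with *Amacr* above it by more than its SD. In INT-767-treated mice *Slc27a5* was again highest (363 ± 136, SD, n = 4), *Akr1d1* came after *Baat* (240 ± 122) with a mean of 188 ± 69.1, and *Cyp7a1* (15.5 ± 4.54), *Cyp7b1* (5.22 ± 1.35) and *Cyp8b1* (2.54 ± 2.92) were the 3 lowest. From *Slc27a5* down to *Amacr* no treated neighbours differed beyond their spread, nor did *Cyp7b1* and *Cyp8b1*.

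The spread between mice of a group differed by gene. With vehicle, the coefficient of variation was 13.5% for *Slc27a5* and 13.7% for *Cyp27a1*, and 37.9% for *Cyp7a1* and 38.7% for *Baat*. With INT-767 it was 115% for *Cyp8b1*, where treated mouse 4 stood above the others, and 57.6% for *Hsd3b7*. Among the 7 vehicle mice, 45 pairs of the genes were correlated on log2 CPM. Of these, 5 passed an adjusted exact permutation *p* of 0.05 by Pearson's r and 0 by Spearman's rho, with 14 pairs at an unadjusted Pearson *p* under 0.05. *Amacr* and *Baat* had r = 0.94 (exact permutation *p* = 0.000595, adjusted *p* = 0.0134) and rho = 0.96 (exact permutation *p* = 0.00278, adjusted *p* = 0.0625), with r = 0.96 without the 2 mice farthest from the median. For *Hsd3b7* and *Baat* r was 0.92 (exact permutation *p* = 0.000595, adjusted *p* = 0.0134) and rho 0.96 (exact permutation *p* = 0.00278, adjusted *p* = 0.0625), and r was 0.79 without such mice. The other pairs past the adjusted Pearson *p* were *Hsd3b7* and *Amacr* (r = 0.96), *Cyp7b1* and *Slc27a5* (r = 0.93), and *Cyp7b1* and *Amacr* (r = 0.89). Vehicle mice 1 and 7 were the highest of their group for *Hsd3b7*, *Baat* and *Amacr*.

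A trend on base composition moved with these libraries. Over 13835 genes with a GC content, each library's deviation from the mean of all mice had a Spearman rho with GC content between −0.42 and 0.44 in vehicle mice and of −0.059, −0.26, −0.16 and −0.24 in treated mice 1 to 4. All treated libraries were thus below 0, as were vehicle 1 (−0.42) and vehicle 7 (−0.12). With transcript length, rho was −0.18 in vehicle 1, −0.23 in vehicle 7, −0.29 in treated mouse 2 and −0.31 in treated mouse 4. It was above 0 in every other library. When the trends of the libraries with GC content and transcript length were removed by an offset, the 4 called genes passed again and *Amacr* (0.60, adjusted *p* = 0.0464) and *Baat* (0.84, adjusted *p* = 0.0405) passed as well.

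By the highest Pearson r over all 11 mice, the genes whose pattern was most like *Cyp7a1* were *Pcdhb22* (r = 0.93), *Ctsk* (0.91) and *Fam126a* (0.91), with r of 0.86, 0.76 and 0.70 over the 7 vehicle mice. For *Cyp8b1* they were *Rab34* (r = 0.97), *Prrg4* (0.97) and *S100a11* (0.96), and over the vehicle mice alone r was 0.28, −0.48 and −0.029. These r describe points that share the treatment groups and the library scaling, and no *p* is given.

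Other genes of bile acid synthesis, among them some that supply cholesterol, electrons or peroxisomal steps, did not pass the test. Of 15, 14 were tested and 0 were called by edgeR, with *Stard5* and *Fdx1* (2 genes) at an unadjusted *p* under 0.05. DESeq2 called the same 2 and limma-voom 0, and edgeR called 1, higher, without vehicle mouse 1, without INT-767 mouse 1 or with the GC content and length offset. Their median log2 fold change was 0.08. *Stard5*, a carrier of cholesterol, was between 115 and 161 CPM with vehicle and between 169 and 201 CPM with INT-767, without overlap, at 0.40 (adjusted *p* = 0.0643). *Fdx1*, an electron carrier of mitochondrial P450 enzymes, was at 0.85 (adjusted *p* = 0.0729). Both were named after their values were seen, as were the genes named further on by an unadjusted *p*.

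Of 9 genes that hydroxylate or sulfate bile acids after synthesis, 7 were tested and 2 rose, with a median of 0.59. *Cyp2a12*, which restores a hydroxyl group that gut bacteria remove, was between 320 and 422 CPM with vehicle and 782, 728, 534 and 500 CPM with INT-767 (0.79, SE 0.16, adjusted *p* = 0.0124). *Sult2a8*, a hepatic bile acid sulfotransferase, was between 9.26 and 31.7 CPM with vehicle and 46.5, 59.4, 56.2 and 54.4 CPM with INT-767 (1.31, SE 0.27, adjusted *p* = 0.0128). Neither gene overlapped between the groups. Neither call was made without INT-767 mouse 2 (adjusted *p* = 0.0664 for *Cyp2a12* and 0.059 for *Sult2a8*), while 4 of the 7 were called, all higher, without vehicle mouse 1 or with DESeq2, and 1 with the GC content and length offset, where *Sult2a8* was at 0.54 (adjusted *p* = 0.379).

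Of 18 regulators of the pathway, 16 were tested and 2 rose, with a median of 0.10. DESeq2 called 4 (3 higher, 1 lower), and edgeR with the GC content and length offset called 5, all higher. *Nr0b2*, which encodes the repressor SHP, was between 9.74 and 26 CPM with vehicle (median 18.3) and 49.3, 63, 45.2 and 41.1 CPM with INT-767. No treated mouse fell within the vehicle range, and *Nr0b2* rose by 1.54 (SE 0.25, adjusted *p* = 0.00474). *Ppargc1a*, a coactivator of nuclear receptors, was between 11.6 and 18.1 CPM with vehicle and 23.1, 28.2, 31.5 and 30.7 CPM with INT-767, a rise of 0.93 (SE 0.15, adjusted *p* = 0.00496). *Nr1h4*, the receptor FXR itself, was between 104 and 154 CPM with vehicle and between 95.6 and 121 CPM with INT-767 (−0.25, 95% interval −0.56 to 0.063, adjusted *p* = 0.232).

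The receptor of FGF15 and its co-receptor overlapped between groups. *Fgfr4* was −0.40 (95% interval −1.03 to 0.23, adjusted *p* = 0.336) and *Klb* 0.11 (95% interval −0.34 to 0.56, adjusted *p* = 0.72). *Fgf15*, a gene of the ileum, had 2 counts in treated mouse 1 and 0 in the other mice. A count of 0 allows up to 3 counts, which is between 0.175 and 0.38 CPM in the vehicle libraries and covers counting error only. *Gpbar1*, which encodes TGR5, had between 0 and 4 counts in each mouse and was not tested.

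Of 11 bile acid transporters, 10 were tested and 3 rose, with a median of 0.63. *Abcb11*, the canalicular export pump, was between 184 and 401 CPM with vehicle (median 213) and 961, 1125, 524 and 563 CPM with INT-767 (1.64, SE 0.26, adjusted *p* = 0.00471). *Slc51b*, a subunit of the basolateral exporter, was between 0.487 and 2.98 CPM with vehicle and 12.3, 23.8, 6.05 and 15.8 CPM with INT-767 (3.43, SE 0.45, adjusted *p* = 0.00234). Treated mice lay above all vehicle mice in both. *Slc51a*, the gene of the other subunit of that exporter, had between 0 and 2 counts in each mouse and was not tested. It was named after its values were seen. The uptake carrier *Slco1a4* also rose (1.23, SE 0.29, adjusted *p* = 0.0242), with treated mouse 1, at 160 CPM, inside the vehicle range of 93.7 to 203 CPM. The *Slco1a4* call was lost without vehicle mouse 5 or 6 or INT-767 mouse 2 or 4, with an adjusted *p* of up to 0.109. DESeq2 called 7 of the 10, 5 higher and 2 lower, and edgeR called 6 (5 higher, 1 lower) without INT-767 mouse 1 and 5 (4 higher, 1 lower) without vehicle mouse 1. The 2 that DESeq2 called lower, named after their values were seen, are the basolateral exporters *Abcc3* (−0.99, adjusted *p* = 0.0842 with edgeR) and *Abcc4* (−1.30, adjusted *p* = 0.102 with edgeR).

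**Figure D4:**
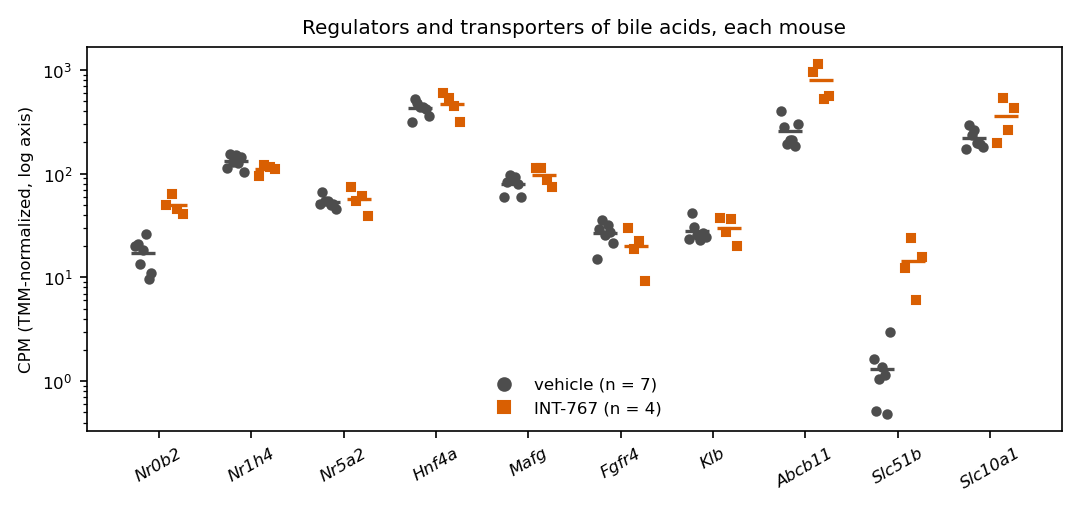
CPM of 7 regulators and 3 transporters of bile acids in each mouse on a log axis, vehicle as grey circles (n = 7) and INT-767 as orange squares (n = 4), with lines at the group means. For *Nr0b2*, *Abcb11* and *Slc51b* all squares lie above all circles, and for *Nr1h4*, *Fgfr4* and *Klb* the groups overlap.

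*Cyp7a1* is also known to follow the time of day and feeding, and a list of clock genes was counted. Of 14 clock genes, 13 were tested, 2 rose and 3 fell, with a median of −0.36. *Nr1d1*, a repressor of the clock, was between 18.8 and 55.5 CPM with vehicle (median 51.4) and 13.3, 3.18, 15.9 and 3.07 CPM with INT-767. The groups did not overlap, and *Nr1d1* fell by 2.28 (SE 0.51, adjusted *p* = 0.0204). *Arntl*, which encodes the activator BMAL1, rose by 2.30 (SE 0.42, adjusted *p* = 0.00831), from between 0.568 and 1.82 CPM with vehicle to 5.15, 9.4, 4.08 and 1.72 CPM. *Cry1* rose by 1.84 (SE 0.28, adjusted *p* = 0.00403). *Dbp*, an output factor, fell by 1.43 (SE 0.36, adjusted *p* = 0.0299), and *Bhlhe41* fell by 1.68 (SE 0.44, adjusted *p* = 0.0341). *Arntl* and *Cry1* were called whichever mouse was left out, and the falls were less stable. Without INT-767 mouse 2 none of the 3 falls was called (adjusted *p* = 0.0837 for *Nr1d1*, 0.0934 for *Dbp* and 0.129 for *Bhlhe41*), and without vehicle mouse 3, 4, 5 or 6 or INT-767 mouse 4 only that of *Nr1d1* was. The *Bhlhe41* call was also lost without vehicle mouse 2 or INT-767 mouse 1, and so in 8 of the 11 fits that left out 1 mouse. With at least 10 counts in every mouse 3 clock genes were called, 1 higher and 2 lower, and *Bhlhe41* was not called after thinning to the smallest library (adjusted *p* = 0.0574). The part of this in the *Cyp7a1* result was not tested.

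**Figure D5:**
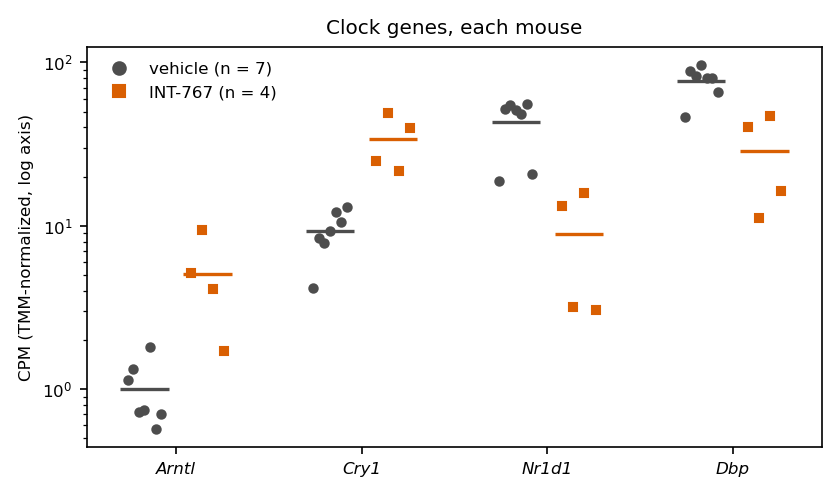
CPM of *Arntl*, *Cry1*, *Nr1d1* and *Dbp* in each mouse on a log axis, vehicle as grey circles (n = 7) and INT-767 as orange squares (n = 4), with lines at the group means. All squares lie above the circles for *Cry1* and below them for *Nr1d1*, and the groups overlap for *Arntl* and *Dbp*.

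*Cyp7a1* and *Cyp8b1* are known as genes of hepatocytes near the central vein, and gene lists of both zones were counted. Of 8 periportal genes 5 rose, with a median of 1.15: *Hal* (1.97, adjusted *p* = 0.00234), *Gls2* (1.28, adjusted *p* = 0.00403), *Ass1* (1.31, adjusted *p* = 0.0045), *Cyp2f2* (1.23, adjusted *p* = 0.00592) and *Sds* (1.08, adjusted *p* = 0.0454), which mostly handle amino acids. The *Sds* call was lost in 8 of the 11 fits that left out 1 mouse (adjusted *p* of up to 0.136) and with library size only, upper-quartile factors or either other filter on low counts (between 0.055 and 0.0841), and the other 4 calls in none of these. Of 9 pericentral genes edgeR called 0, with *Axin2* and *Gulo* (2 genes) at an unadjusted *p* under 0.05, DESeq2 called 1 (*Axin2*) and limma-voom 0, and their median was −0.087. Without vehicle mouse 1 edgeR called 1 pericentral gene lower, and without INT-767 mouse 1 it called 1 higher. The summed periportal level was between 2618 and 3680 CPM with vehicle and 7314, 5389, 4969 and 3676 CPM with INT-767, and the summed pericentral level between 4489 and 9321 CPM and 3066, 5841, 6871 and 3633 CPM. The most abundant genes were *Ass1* and *Cyp2e1*. Of 8 male-biased liver genes tested of 9, *Elovl3* rose (1.76, adjusted *p* = 0.0224) and *C6* (−1.63, adjusted *p* = 0.00403), *Serpina1e* and *Cyp4a12a* (−2.79, adjusted *p* = 0.0204) fell. *Cyp4a12a* has a near-identical copy, *Cyp4a12b*, which was at 2.21 (adjusted *p* = 0.103), so that the count of either is uncertain. *Elovl3* was not called without vehicle mouse 6 or INT-767 mouse 2 (adjusted *p* of up to 0.116) or with limma-voom (adjusted *p* = 0.0526). Without INT-767 mouse 2 *Elovl3* was at 1.16 and *Cyp4a12a* at −3.97. The part of zonal and male-biased genes in the results was not tested.

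Markers of other liver cells were counted in the same way. Of 8 stellate cell and myofibroblast genes, *Col1a1* (−2.96, adjusted *p* = 0.0297) and *Pdgfrb* (−1.31, adjusted *p* = 0.0302) fell, and their sum, led by *Dcn*, was between 822 and 1637 CPM with vehicle and 645, 690, 749 and 1130 CPM with INT-767. The log2 fold change was below 0 for 6 of the 8, with a median of −0.66, and DESeq2 called 3, all lower. The edgeR calls of *Col1a1* and *Pdgfrb* were lost without vehicle mouse 3, 4, 5 or 6 or INT-767 mouse 2 or 4, with adjusted *p* of up to 0.0946 for *Col1a1* and 0.114 for *Pdgfrb*, and that of *Col1a1* with no filter beyond 1 count (adjusted *p* = 0.0743). Of 8 macrophage genes *Cd68* fell (−1.16, adjusted *p* = 0.00943), and their sum, led by *Lyz2*, was between 641 and 961 CPM and 490, 478, 433 and 1090 CPM. Of these 8 genes 7 had a log2 fold change below 0, with a median of −0.59 and 5 at an unadjusted *p* under 0.05, and 4 were called, all lower, with DESeq2, with library size only or without INT-767 mouse 4. Of 7 cholangiocyte genes *Cldn4* fell (−1.29, adjusted *p* = 0.0245), and their sum, led by *Spp1*, was between 756 and 1946 CPM and 375, 598, 829 and 1365 CPM. All 7 log2 fold changes were below 0, with a median of −0.63 and 4 at an unadjusted *p* under 0.05. DESeq2 called 3, and edgeR 2 with library size only, with upper-quartile factors or without vehicle mouse 1 or INT-767 mouse 3, all lower, whereas without INT-767 mouse 2 the *Cldn4* call was lost (adjusted *p* = 0.0929) and 0 were called. The summed levels of all 3 lists overlapped between the groups.

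The remaining lists were lower in level. Of 7 endothelial genes edgeR called 0, with *Pecam1* and *Stab2* (2 genes) at an unadjusted *p* under 0.05 and 0 by DESeq2 or limma-voom, and their sum, led by *Stab2*, was between 116 and 255 CPM with vehicle and 185, 121, 150 and 96.4 CPM with INT-767. Their median log2 fold change was −0.29, with 6 of 7 below 0, and 1 was called lower without vehicle mouse 1 or INT-767 mouse 1. Of 7 lymphocyte genes tested of 8 edgeR called 0, with *Cd3e* (1 gene) at an unadjusted *p* under 0.05 and 0 by DESeq2 or limma-voom, and their sum was between 4.47 and 16 CPM and 4.38, 5.94, 5.35 and 8.39 CPM. Of 3 neutrophil genes tested of 5 *Csf3r* fell (−1.49, adjusted *p* = 0.0173, and 0.0701 without INT-767 mouse 2). The other 2, *S100a8* (0.31) and *S100a9* (0.46), were above 0 and did not pass the test, and the median was 0.31. The sum of the neutrophil list, led by *S100a9*, was between 10.7 and 16.6 CPM with vehicle and 7.18, 8.15, 4.08 and 28.4 CPM with INT-767. No marker of the 6 cell types was at 0 in every mouse, and *Retnlg* and *Ly6g* of the neutrophil list were at 0 in some. The part of cell composition in the results was not tested.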

How the data were processed

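RNA of terminal liver samples from 7 vehicle and 4 INT-767-treated mice was sequenced by the authors as stranded mRNA libraries over 75 cycles. Reads were aligned to GRCm38 with Ensembl release 84 by STAR, version 2.4.0 in the submitters' processing notes and 2.5.2a in the supplementary methods. The authors deposited raw counts per gene, without normalization. Neither the program that counted reads nor its strand setting is given in the sources used here.

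Groups were taken from the sample labels. Counts were scaled by TMM, kept by filterByExpr (minimum count 10, minimum total 15) and tested by glmQLFit (robust) and glmQLFTest in edgeR 4.0.16 (R 4.3.3), with treatment as the only term and a threshold of 0.05. The rank comparison of single genes was an exact Mann-Whitney test, two-sided, over all 330 assignments of the mice. Log2 ratios used a pseudocount of 0.5, and correlations log2 of CPM plus 1. DESeq2 1.42.0, limma-voom (limma 3.58.1), other factors and filters, a replicate block, a GC content and length offset (lowess span 0.3), thinning, leaving out each mouse and a threshold of 0.01 were alternatives. The scripts were tested on simulated data. No library was a copy of another: the closest pair, vehicle 5 and 6, had a median chi-square per gene of 1.11. Repeat draws of the same library, differing by counting error alone, would give 0.455. Promoters came from RefSeq (GRCm38.p6) and coordinates from GENCODE M21.

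The 10 genes and the 16 other lists were chosen with earlier results of these data known. Named were all 10 genes, up to 5 called genes of each other list by smallest adjusted *p*, *Nr1h4*, *Nr0b2*, *Fgf15*, *Fgfr4*, *Klb* and *Gpbar1*, and the most abundant gene of each cell type list. Some of these, and the list of female-biased liver genes, are not reported here. The protein comparison planned for these genes was not run.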

Additional observations from a re-analysis of the deposited data

Results flagged for a closer look

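Within 98 groups of values, 7 (7.14%) had a mouse far from the rest of its group by Dixon's test, where chance gives about 1 in 20. Vehicle mouse 3 accounted for 3 of them: its log2 ratio of *Cyp7b1* to *Cyp7a1* was −2.54 and of *Cyp27a1* to *Cyp7a1* 2.46, both above those of the other vehicle mice, and its *Bhlhe41* was 11.1 CPM. Treated mouse 4 stood above its group for *Lyz2* (399 CPM) and *S100a9* (15.7 CPM), and it also had the highest *Cyp8b1*, *Cyp7a1*, *Hsd3b7* and *Baat* of the treated mice. *Klb* was 41.6 CPM in vehicle mouse 2, and *Fgf15* 0.127 CPM in treated mouse 1, from 2 counts.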

How the results depend on the processing

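The directions of *Cyp7a1*, *Cyp8b1*, *Akr1d1* and *Slc27a5* were the same under all 22 alternatives, and each kept its side of the threshold under 19 or 20 of them. Of the 10 genes, 7 were called with DESeq2 and 2 at a threshold of 0.01, and leaving out 1 mouse gave between 2 (without INT-767 mouse 2, *Akr1d1* and *Cyp8b1*) and 7 (without vehicle mouse 1). Of all genes, 2811 were called with DESeq2, 245 at 0.01, and between 274 (without INT-767 mouse 2) and 3276 (without vehicle mouse 1) when 1 mouse was left out. It was between 573 and 812 without vehicle mouse 3, 4, 5 or 6.

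The replicate numbers did not pair the mice: deviations of same-numbered mice correlated at −0.69, 0.215, 0.148 and −0.482. No treated mouse correlated best with the vehicle mouse of its own number. A block on these numbers spends a term on each number and draws nothing from vehicle mice without a treated mouse of that number. It leaves few residual degrees of freedom, so that calls lost with it cannot be told apart from a loss of power. With the replicate block edgeR called 0 of the 10 genes and 0 of all genes, with 4 and 1347 at an unadjusted *p* under 0.05, and with the GC content and length offset and the replicate block it called 0 and 0, with 4 and 1681. The log2 fold change of *Cyp8b1*, −4.60 in the main fit, was −5.37 with the block (SE 0.64, adjusted *p* = 0.143). With the offset and block it was −5.34 (SE 0.60, adjusted *p* = 0.0675).

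*Hsd3b7* had no stable sign. Its log2 fold change was −0.23 with library size only, −0.085 with upper-quartile factors, −0.011 with no filter beyond 1 count, −0.072 with at least 10 counts in every mouse, −0.11 with limma-voom, −0.31 with the replicate block, −0.29 with the offset and block, −0.019 after thinning, and between −0.44 and 0.25 without 1 mouse. *Cyp27a1* was −0.068 with library size only. With upper-quartile factors, chosen after seeing the data, 2 pairs (*Hsd3b7* with *Baat* and *Amacr* with *Baat*) were correlated among vehicle mice by both measures, against 0 with TMM. The cause of these shifts was not tested. *Cyp8b1* rests on as few as 10 counts in a treated mouse, which limits its fold change.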
